A study of Mus musculus with 4 samples.

Results

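The genes described here encode the proteins of the cytosolic ribosome in BEKO, a line of mouse thymic lymphoma cells. They were taken from the deposited expression table by symbol: names made of Rpl or Rps with a number (an a, l, x or y may follow), the 3 names Rplp0, Rplp1 and Rplp2, and the genes Rpsa and Fau, without the Rps6k kinases. The rule found 87 rows of 25630, 53 for the large 60S subunit and 34 for the small 40S subunit. RNA of BEKO cells labelled wild type was compared between low density (2 libraries) and high density (2 libraries); both groups share the line and the genotype, and the labels name no treatment, cell number, medium or time in culture. Whether a group's libraries are from different cultures is not in the labels, and p-values refer only to the variation among these 4 libraries, part or all of which may be technical. Values are TPM, a transcript abundance corrected for gene length and scaled to the same total in every library. TPM keeps no read depth, so the depth behind each value is unknown.

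A ribosome joins a single copy of almost every ribosomal protein to its ribosomal RNAs, and only the acidic stalk proteins are present in several copies. The mRNAs of these proteins are among the most abundant of a growing cell, and many begin with a C and a run of pyrimidines, the 5′ terminal oligopyrimidine (TOP) motif through which the mTOR pathway controls their translation. Mammalian genomes also hold a large number of processed pseudogenes of ribosomal protein genes, which are copies of the mRNA inserted elsewhere. A sequencing read from a ribosomal protein mRNA can therefore match several places.

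The rule leaves out Rack1, which also encodes a ribosomal component. It takes in 8 diverged paralogs, among them Rpl3l and Rps27l, and Rpl32l, which the GENCODE M21 annotation lists as a processed pseudogene. Rps4l, another of the 8 paralogs, has a coding length of 0 bases in that annotation. All 87 rows matched a gene of that annotation, on 20 chromosomes. Of the 87 rows, 83 reached a mean of 1 TPM over the 4 libraries and were tested. Rpl10l, Rpl39l and Rpl26 were listed at 0 in every library, and Rps4l at 1.92 TPM in low density library 1 and at 0 in the others. Rpl10l and Rpl39l are known from testis, whereas Rpl26 is a constitutive 60S gene.

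The T cell identity of the cells was visible in all libraries. The 10 T lineage markers examined all passed the filter, and their summed level lay between 7517 and 8108 TPM in the 4 libraries. Thy1, a T cell surface glycoprotein, was at 1404 to 2067 TPM, and the lowest of the 10, Cd5, did not exceed 2.95 TPM. Cd2, a T cell adhesion receptor, was called higher at high density, at 99.8 and 91.4 TPM at low and 309.7 and 278 TPM at high density (log2 fold change 1.61 ± 0.23 SE, limma adjusted p = 0.00225). Cd5 was at 0.190 and 0.489 TPM at low and 2.95 and 2.43 TPM at high density, again without overlap but not called (adjusted p = 0.0530, limma). It passed the filter only through its high density values, and that p depends on this selection. None of the 5 B cell and none of the 5 epithelial markers passed the filter, nor did 5 of the 6 myeloid markers in the table, Lyz2 and Cd14 being listed at 0. The one that passed, Itgam, was at 8.27 and 6.62 TPM at low and 16.1 and 12.1 TPM at high density, without a call by limma (adjusted p = 0.134). Of the erythroid markers only Alas2 and Klf1 passed, at no more than 4.34 TPM. The 6 fibroblast markers summed to 46.9 TPM in low density library 1 (mostly the collagen genes Col1a1 at 30.3 and Col1a2 at 14.5 TPM) and to 0.330 to 0.673 TPM in the other libraries. The part of RNA from other cells in the results was not tested.

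Rpl37, a 60S protein gene, shows how close a copy can be. Its coding sequence and that of Rpl37rt, a transcribed processed pseudogene with a row of its own in the table, are shown because the levels of the 2 rows lay far apart. Both sequences come from GENCODE M21 (mouse build GRCm38), from the start codon to the stop codon, and the capital marks the 1 base that differs.
Rpl37 (chromosome 15): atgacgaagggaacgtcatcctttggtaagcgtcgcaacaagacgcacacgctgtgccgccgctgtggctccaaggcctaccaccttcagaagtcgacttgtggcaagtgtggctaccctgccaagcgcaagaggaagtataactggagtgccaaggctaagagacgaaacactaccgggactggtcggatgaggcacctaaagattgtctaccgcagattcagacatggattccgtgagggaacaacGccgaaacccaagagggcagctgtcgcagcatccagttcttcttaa
Rpl37rt (chromosome 5): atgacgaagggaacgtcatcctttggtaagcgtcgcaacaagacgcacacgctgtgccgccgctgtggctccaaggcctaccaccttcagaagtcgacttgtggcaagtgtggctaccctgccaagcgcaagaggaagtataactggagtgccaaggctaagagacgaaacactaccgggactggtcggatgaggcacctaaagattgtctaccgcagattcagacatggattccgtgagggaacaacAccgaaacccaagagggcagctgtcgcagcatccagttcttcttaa
The difference is G249A, counted from 1 at the first base of the start codon with the Rpl37 base first, in 294 bases. Rpl37 was at 63.4 and 89.1 TPM in the low density libraries and at 47.2 TPM in both high density libraries. The Rpl37rt row was at 2739 and 3674 TPM at low density and at 3576 and 2553 TPM at high density, a mean 50.8 times that of Rpl37. The counting of reads that match more than 1 gene is not given, so the split of reads between such rows is uncertain.

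Shared sequence was measured for every gene by cutting its annotated mRNA into overlapping 50-base windows and looking for each window in all transcripts of all other genes. By this measure, which takes in the untranslated parts, Rpl37rt holds 31.3% of the windows of Rpl37. In the 83 tested ribosomal protein genes a median of 44.5% of windows was unique to the gene, from 1.35% in Rps27 to 100% in Rpl3l. Fewer than 50% of windows were unique in 48 of the 83 genes (57.8%). Among the 9991 other tested protein-coding rows that matched the annotation, this held for 3.16%, and their median was 100%. A copy that holds at least 50% of a gene's windows was found for 43 of the 87 genes. These copies were 96 genes, 83 of them annotated as pseudogenes, and only 6 of the copies outside the ribosomal protein genes have a row in the table.

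**Figure D1:**
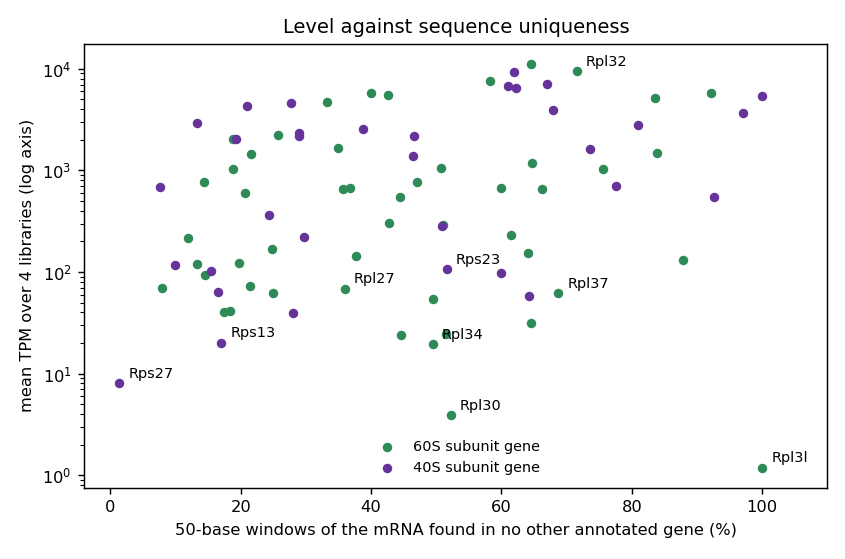
Mean TPM over the 4 libraries (y axis, log scale) against the percentage of 50-base windows of the mRNA found in no other annotated gene (x axis), 1 point per tested ribosomal protein gene, green for 60S and purple for 40S genes. Rps27 lies at 1.35% and 8.02 TPM, Rpl3l at 100% and 1.19 TPM, and genes of low level occur over most of the range of uniqueness.

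Levels spanned several orders of magnitude. The median tested gene had a mean of 662 TPM, against 34.3 TPM over all 10936 rows tested. Of the ribosomal protein genes, 35 had a mean of at least 1000 TPM and 12 of at least 5000 TPM, while 21 of those tested lay below 100 TPM. The 100 rows of highest mean in the whole table held 35 of them. The highest and the lowest tested mean differed 9369-fold, and 2844-fold when the diverged paralogs were left out. The proteins themselves are needed in nearly equal numbers, but the table measures RNA, and TPM depends on the gene length used and on the treatment of shared reads. Across the 83 genes, the Spearman correlation between level and unique share of the mRNA was 0.28, a description over genes of the same libraries.

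**Figure D2:**
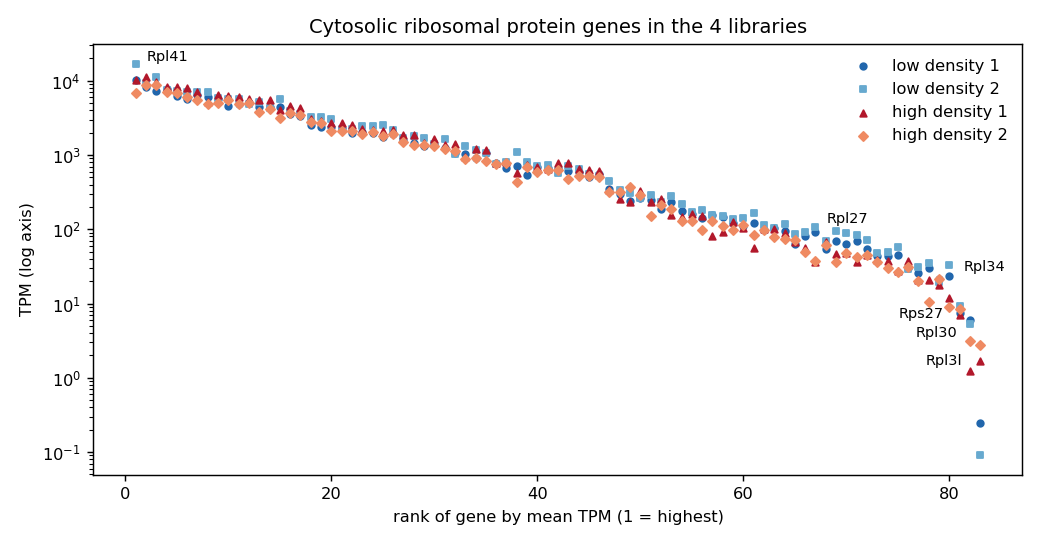
TPM of the 83 tested ribosomal protein genes (y axis, log scale) in each of the 4 libraries (symbols), ordered by mean TPM (x axis). The symbols of the 2 groups overlie each other for most genes at the abundant end, though not for Rpl41, the most abundant. They separate for several genes of low level such as Rpl27 and Rpl34.

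The most abundant gene was Rpl41, which encodes a very short peptide of the 60S subunit. It was at 10318 and 17058 TPM in the low density libraries and at 10200.4 and 6879 TPM in the high density libraries. Both high density values lay below both low density values, but the low density libraries also differed between themselves, and limma did not call the gene (log2 fold change -0.66 ± 0.30 SE, adjusted p = 0.202). Rpl32, a 60S protein gene, followed at 8338 and 9439 TPM at low and 11083 and 8896 TPM at high density. Rps14, a 40S gene whose loss underlies the anaemia of the human 5q- syndrome, was at 7231 and 11275 TPM at low and 9681 and 8709 TPM at high density. In both genes the groups overlapped. Rplp0, the base of the 60S stalk, was at 7746 and 7593 TPM at low and at 8212 and 7079 TPM at high density. Rps9, a 40S protein gene, was at 6326 and 7213 TPM at low and 8225 and 6776 TPM at high density. The 10 most abundant genes together held 49.5% of the summed level of all 87.

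At the other end, Rps27 was at 7.39 and 9.30 TPM at low and at 6.95 and 8.45 TPM at high density. It encodes a zinc-binding 40S protein, and 98.6% of its mRNA windows are also found in Rps27rt, whose row is listed at 0 in every library. Rpl30, a 60S protein gene, was at 5.91 and 5.31 TPM at low and 1.25 and 3.16 TPM at high density. The groups did not overlap in Rpl30, with log2 fold change -1.11 ± 0.39 SE and no call by limma (adjusted p = 0.116).

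The question of the design is whether the level differs between low and high density. The summed level of all 87 genes was 14.0% and 16.8% of all TPM in low density libraries 1 and 2 and 16.3% and 13.3% in high density libraries 1 and 2. The means were 15.4% ± 1.97 (SD, n = 2) at low and 14.8% ± 2.09 (SD, n = 2) at high density, and the groups overlapped. The spread within each group exceeded the difference of -0.59 percentage points. The 60S genes held 7.22% and 8.57% in the low density libraries and 8.10% and 6.60% in the high density libraries. The 40S genes held 6.80% and 8.23% in the low density libraries and 8.21% and 6.75% in the high density libraries, so both subunits had their higher shares in low density library 2 and high density library 1. An exact permutation test of 2 libraries against 2 cannot go below p = 0.333 and was not used. In bulk RNA of this kind, fewer cells that express a gene and less RNA per cell cannot be told apart, and a share of TPM says nothing of the amount per cell.

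Gene by gene, high density was compared with low density by limma on log2(TPM + 1) over all 10936 rows tested, with Benjamini-Hochberg adjustment, and rows with an adjusted p below 0.05 were called. Fold changes are on the log2(TPM + 1) scale, high minus low density, and understate the change of weakly expressed genes. Of the 83 ribosomal protein genes, 4 (4.82%) were lower at high density, Rpl27, Rpl34, Rps23 and Rps29, and 0 were higher. The background is 2.11% of all rows called lower and 4.57% called higher, 6.68% in either direction. At an unadjusted p under 0.05, 16 of the 83 were lower and 1 was higher. In refits on log2(TPM + 0.1) and log2(TPM + 5), 2573 and 2538 of all 10936 rows were under that p. These rows were not split by direction. The median log2 fold change of the 83 genes was -0.10, against 0.12 over all rows, and 55 of the 83 fitted values lay below 0.

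Rpl27 encodes a 60S protein, and its gene is on chromosome 11. It was at 91.6 and 109 TPM in the low density libraries and at 35.9 and 37.3 TPM in the high density libraries. Both high density values were far below both low density values, and the libraries of a group lay close together. The mean was 2.74-fold lower at high density, with log2 fold change -1.43 ± 0.25 SE (limma, adjusted p = 0.00628). Of its mRNA windows, 35.9% are unique.

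Rpl34 encodes another 60S protein, from chromosome 3. It was at 23.4 and 33.3 TPM at low and at 11.7 and 9.09 TPM at high density. The groups did not overlap, and the mean was 2.73-fold lower at high density, with log2 fold change -1.35 ± 0.30 SE (limma, adjusted p = 0.0218). Its unique share is 49.4%, and Rpl34-ps1, a processed pseudogene that holds 50.6% of its windows, is listed at 0 in every library.

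Rps23 encodes the 40S protein next to the decoding centre, where codon and anticodon pair, and lies on chromosome 13. It was at 120.0 and 167 TPM at low and at 56.3 and 83.0 TPM at high density. No high density value reached a low density value, and the mean was 2.06-fold lower, with log2 fold change -1.04 ± 0.28 SE (limma, adjusted p = 0.0460).

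Rps29 encodes a small zinc-binding protein of the 40S head, from chromosome 12. It was at 68.6 and 84.9 TPM at low and at 36.4 and 41.8 TPM at high density. The groups were again apart, and the mean was 1.96-fold lower at high density, with log2 fold change -0.95 ± 0.25 SE (limma, adjusted p = 0.0463). Unique shares of Rps23 and Rps29 are 51.6% and 64.2%. The 4 called genes together made up 0.0304% and 0.0394% of all TPM in the low density libraries and 0.0140% and 0.0171% in the high density libraries, a small part of the summed level of the 87.

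The 4 calls depended on the libraries and on the scaling. Without either high density library the 4 genes were still called. These fits hold 1 high density library and called a larger share of all rows lower than the main fit. Leaving out high density library 1 gave a median log2 fold change of -0.18 for the 83 genes and 0.27 for all rows. Leaving out high density library 2 gave -0.019 and -0.023. Without low density library 1 or without low density library 2 none of the 4 was called, and the adjusted p of Rpl27 in limma was 0.0583 and 0.231. Centring each library on its median moved the median of all rows from 0.12 to -0.063, left Rpl27 as the only call, and turned the split of all calls from 500 higher and 231 lower to 160 higher and 154 lower. After quantile normalisation Rpl27 was again the only one called, and the medians of the ribosomal protein genes and of all rows were -0.033 and -0.012.

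**Figure D3:**
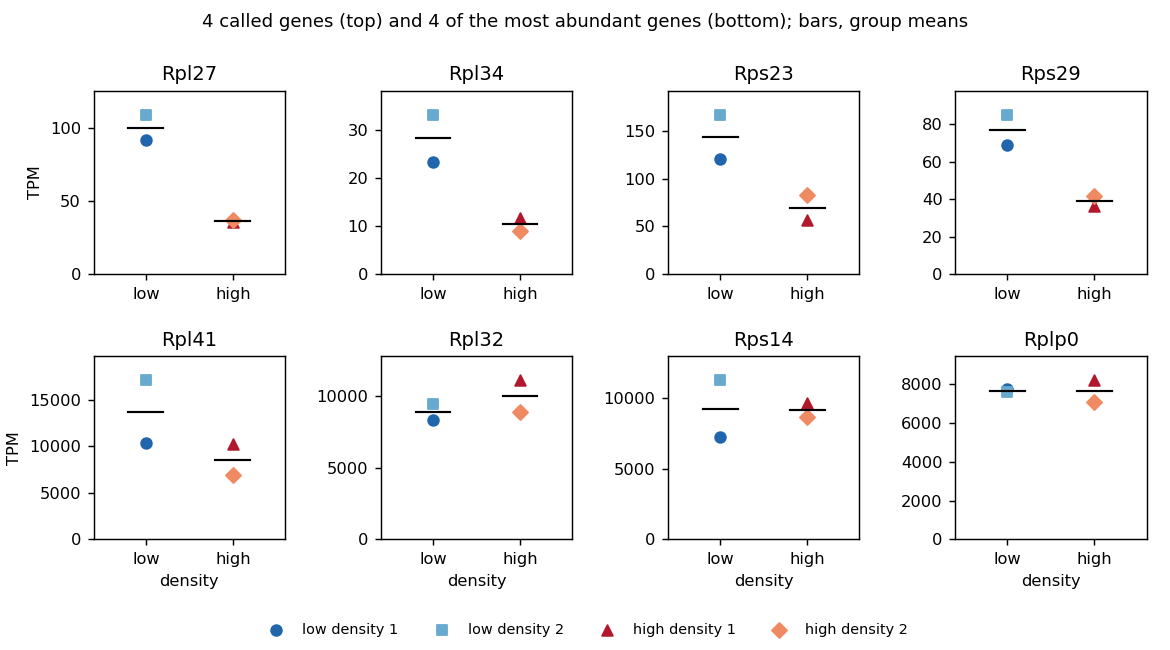
TPM in each library (y axes, each from 0) at low and high density for the 4 called genes (top) and 4 of the most abundant genes (bottom), with black bars for group means. In Rpl27, Rpl34, Rps23 and Rps29 both high density points lie below both low density points, whereas in Rpl32, Rps14 and Rplp0 the groups overlap.

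Another 5 genes had an adjusted p between 0.05 and 0.1 in limma, and are named, after their values were seen, because they lie next to the threshold. Rpl31, at the rim of the tunnel through which the new protein leaves the ribosome, was at 69.7 and 96.3 TPM at low and 46.9 and 36.8 TPM at high density (log2 fold change -0.96 ± 0.27 SE, limma adjusted p = 0.0544). Rps27a, made as a fusion of ubiquitin with a 40S protein, was at 44.8 and 58.3 TPM at low and 27.5 and 26.2 TPM at high density (-0.90 ± 0.26 SE on the log2 scale, limma adjusted p = 0.0629). Rpl38, a 60S protein known from a mouse skeletal patterning mutant, was at 30.5 and 34.7 TPM at low and 20.7 and 10.5 TPM at high density (-1.09 ± 0.33 SE on the log2 scale, limma adjusted p = 0.0720). In each of these the high density values lay below the low density values. Rps27l (adjusted p = 0.0917 in limma) and Rpl3l (0.0650) are described with the paralogs.

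Both high density libraries lay below both low density libraries in 28 of the 83 genes (33.7%), where 20.0% of all rows did so, and above them in 4 genes (4.82%), where 34.7% of all rows did so. The 28 were 21 of the 50 tested 60S genes and 7 of the 33 tested 40S genes. Among the 4 above were Rps15a, Rpl32l and Rpl3l. Rps15a, a 40S protein gene, was at 264 and 267 TPM at low and 326 and 287 TPM at high density (log2 fold change 0.20 ± 0.22 SE, limma adjusted p = 0.630). Rpl32l had a fitted value of 0.20 at 29.3 to 36.9 TPM, and Rpl13a, whose groups overlapped, of 0.19 at 4589 to 6271 TPM.

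Abundant and less abundant genes are described separately. Among the 42 genes at or above the median level of 662 TPM, 0 were called, 6 had both high density values below both low density values, and the median log2 fold change was -0.0036. Of all 156 rows at or above that level, a set that includes these 42 genes, 7.05% were called lower. In that set 40.4% had both high density values below, and the median was -0.14. Among the 41 genes below it, 4 (9.76%) were called lower, 22 (53.7%) had both high density values below, 33 had a fitted value below 0, and the median was -0.29. Of all 8323 rows between 10 TPM and the same level, 2.20% were called lower, 20.4% had both high density values below, and the median was 0.12. Over the 83 genes, the Spearman correlation between mean TPM and log2 fold change was 0.47, and over all 8479 rows of at least 10 TPM it was -0.20, both as descriptions across genes. The same 41 genes had less unique mRNA, with a median of 35.9% of windows against 48.9% in the 42 others, and 26 of the 41 had a close copy against 16 of the 42. The Spearman correlation between unique share and log2 fold change was 0.21 over the 83 genes, and the part of shared reads in these differences was not tested.

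**Figure D4:**
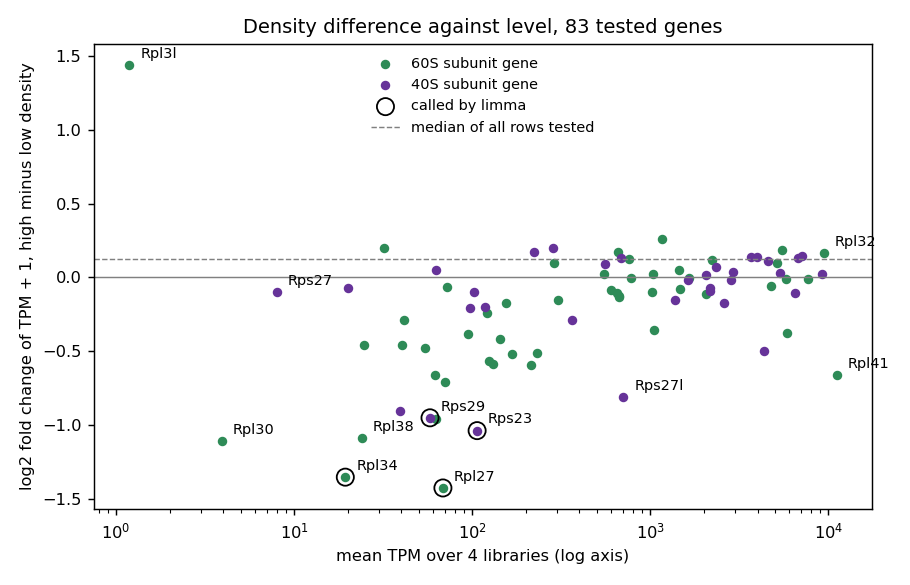
Log2 fold change of TPM + 1, high minus low density (y axis), against mean TPM (x axis, log scale) for the 83 tested genes, with circles around the called genes and a dashed line at the median of all rows tested (0.12). Genes at or above 662 TPM have a median of -0.0036, with Rpl41 and Rps27l lowest, and those at lower level a median of -0.29.

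The 2 libraries of a group did not lie at the same place. Between low density libraries 2 and 1 the median log2 difference of the 83 genes was 0.23, with 70 genes higher in library 2, and between high density libraries 1 and 2 it was 0.21, with 68 genes higher in library 1. The corresponding medians over all rows were -0.12 and -0.27. Of the 4 differences between a high and a low density library, 3 had a median below 0 for the 83 genes (-0.16, -0.11 and -0.30) and 1 above (0.12, high density library 1 against low density library 1). The deepest was high density library 2 against low density library 2, in which 8 of the 83 genes were above 0. Below the median level all 4 differences had a median below 0, from -0.49 to -0.10. Within groups, the same genes had a median of 0.25 between low density libraries 2 and 1. Between high density libraries 1 and 2 it was 0.087. At or above the median level, the 4 differences between a high and a low density library ran from -0.22 to 0.21.

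By their place in the ribosome, the genes were described in groups of known role, each read beside the 2.11% of all rows called lower. The 50 tested 60S genes had a median log2 fold change of -0.13 with 2 called lower, and the 33 tested 40S genes a median of -0.018 with 2 called lower. Of the 7 tested genes at the rim of the polypeptide exit tunnel (Rpl17, Rpl19, Rpl23a, Rpl31, Rpl35, Rpl38 and Rpl39) 0 were called. All 7 fitted values lay below 0, with a median of -0.13, where 37 of the 50 60S genes and 4409 of all 10936 rows lay below 0. Both high density values lay below both low density values in Rpl23a, Rpl31 and Rpl38 (42.9%). The share was 42% among the 60S genes and 20.0% over all rows.

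Rpl5 and Rpl11 bind the 5S ribosomal RNA, and outside the ribosome they are known to inhibit Mdm2, the ligase that marks p53 for degradation. Rpl5 was at 26.0 and 31.1 TPM at low and 21.1 and 19.9 TPM at high density, with log2 fold change -0.46 ± 0.27 SE (limma, adjusted p = 0.335). Rpl11 was at 144 and 182 TPM at low and 151 and 96.6 TPM at high density, with -0.42 ± 0.27 SE on the same scale (limma, adjusted p = 0.386). Neither was called, and the groups overlapped in Rpl11.

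The P stalk recruits the elongation factors to the 60S subunit and consists of Rplp0, Rplp1 and Rplp2, with Rpl12 at its base. Rplp1 was at 6049 and 7151 TPM at low and 5226 and 4904 TPM at high density, without overlap (log2 fold change -0.38 ± 0.23 SE, limma adjusted p = 0.346). Rplp2 was at 1598 and 1708 TPM at low and 1834 and 1483 TPM at high density. Rpl12 was at 240.4 and 310.1 TPM at low and 231 and 369 TPM at high density. None of the 4 was called, their median log2 fold change was -0.0056, and in Rplp0, Rplp2 and Rpl12 the groups overlapped.

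Fau, made as a fusion of a ubiquitin-like protein with a 40S protein, was at 55.0 and 69.1 TPM at low and 67.2 and 60.6 TPM at high density (log2 fold change 0.05 ± 0.25 SE), and its groups overlapped. Rack1, a scaffold protein on the 40S head, was at 3927 and 4054 TPM at low and 5256 and 4455 TPM at high density, and was not called. Of 10 ribosomal protein genes mutated in Diamond-Blackfan anaemia, a failure of red cell production, 9 were tested (Rpl26 was listed at 0). None of the 9 was called, and their median log2 fold change was -0.017.

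Some diverged paralogs can replace the canonical protein in certain tissues. None of the 5 tested was called. Rpl22 is needed for the development of αβ T cells, and Rpl22l1 is its paralog. Rpl22 was at 906 and 1152 TPM at low and 1204 and 899 TPM at high density, and Rpl22l1 at 300.5 and 334 TPM at low and 254 and 319 TPM at high density. Rpl22l1 thus stood at 33.2% and 28.9% of Rpl22 in the low and 21.1% and 35.5% in the high density libraries, with overlap of the groups. A transcribed pseudogene row, Gm15421, shares 56.5% of the windows of Rpl22l1 and was at 115 to 139 TPM.

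Rps27l, a p53 target gene, was at 710.4 and 1095 TPM at low and 581 and 436 TPM at high density. Both high density values were lower, with log2 fold change -0.81 ± 0.27 SE (limma, adjusted p = 0.0917). Its row was 96.1 and 118 times that of Rps27 at low and 83.6 and 51.5 times at high density, and Rps27l has 77.6% unique windows where Rps27 has 1.35%.

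Rpl3l replaces Rpl3 in heart and skeletal muscle. It was at 0.247 and 0.0906 TPM at low and 1.67 and 2.74 TPM at high density, so that all 4 values were low and the high density ones were higher (log2 fold change 1.44 ± 0.42 SE, limma adjusted p = 0.0650). Its low density mean, 0.169 TPM, lay under the filter of 1 TPM, and its high density mean, 2.20 TPM, above it. Rpl3l was thus tested only through its high density values, and its fitted value and p depend on that selection. Rpl3 was between 761 and 788 TPM in all libraries, and Rpl3l stood at 0.0119% to 0.360% of it.

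Rpl36al was at 663 and 732 TPM at low and 646 and 626 TPM at high density, 6.25 to 8.52 times the level of Rpl36a, the canonical gene. Rpl7l1 was at 156 and 157 TPM at low and 81.9 and 131 TPM at high density, 1.47% to 3.54% of Rpl7. In coding sequence, Rpl36al is 87.9% identical to Rpl36a, Rps27l 76.1% to Rps27, Rpl3l 73.3% to Rpl3 and Rpl22l1 66.9% to Rpl22.

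**Figure D5:**
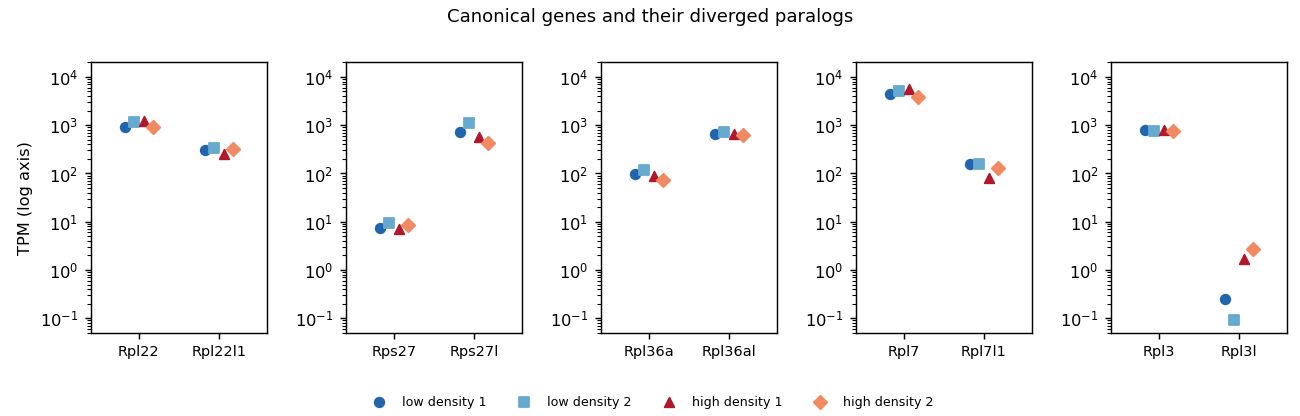
TPM (y axes, the same log scale in all panels) of 5 canonical ribosomal protein genes and their tested diverged paralogs, 1 symbol per library. Rps27l and Rpl36al lie above Rps27 and Rpl36a, the other paralogs lie below their partners, and Rpl3l is at 0.0906 to 2.74 TPM.

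Rows for close copies held a further share of the RNA. Outside the 87 genes, 17 rows share at least 10% of the windows of a ribosomal protein gene, and together they made up 0.835% and 1.05% of all TPM at low and 0.993% and 0.774% at high density. Besides Rpl37rt, the Rpl14 pseudogene Rpl14-ps1 was at 3799 and 4551 TPM at low and 4075 and 3309 TPM at high density, 3.74 times the mean of Rpl14 itself. Rpl14 was at 1031 and 1338 TPM at low and 949 and 891 TPM at high density, without overlap and without a call by limma (log2 fold change -0.35 ± 0.23 SE, adjusted p = 0.386). In both of these pseudogene rows the groups overlapped.

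The letters around the annotated start are shown for 3 of the called genes, Rpl27, Rpl34 and Rps23, and for 3 of the most abundant, Rpl41, Rplp0 and Rps9, so that the starts can be compared. The windows come from RefSeq (GRCm38.p6), with 40 bases before the start followed by 20 bases from the start on. Capitals mark a C followed by at least 4 letters that are each C or T, where such a run begins within 10 bases of the start. They begin at the qualifying C closest to the start, so in Rps9 the stretch of C and T extends further upstream than marked.
Rpl27 (chr11:101442205-101442264, plus strand): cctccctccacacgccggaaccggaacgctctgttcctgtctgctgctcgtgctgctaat
Rpl34 (chr3:130730379-130730438, minus strand): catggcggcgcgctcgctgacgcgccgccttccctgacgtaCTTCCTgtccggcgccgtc
Rps23 (chr13:90923082-90923141, plus strand): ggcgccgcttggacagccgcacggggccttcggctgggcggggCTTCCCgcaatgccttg
Rpl41 (chr10:128549149-128549208, minus strand): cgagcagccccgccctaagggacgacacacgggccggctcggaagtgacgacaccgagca
Rplp0 (chr5:115559427-115559486, plus strand): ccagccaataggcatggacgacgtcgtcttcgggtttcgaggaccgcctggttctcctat
Rps9 (chr7:3704001-3704060, plus strand): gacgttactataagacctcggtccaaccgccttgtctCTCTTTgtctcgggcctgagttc
Such a run stood within 10 bases of the start in Rpl34, Rps23 and Rps9. Rpl34 has 2 annotated starts, of which 1 is shown. Entries were found for 66 of the 87 genes, and Rps29 and Rpl32 are among those without one. Of the 66, 41 (62.1%) held such a run within 10 bases, against 34.4% of the 27025 genes with a RefSeq entry, and 15 (22.7%) held it exactly at the annotated start, against 3.01%. The motif CCGGAAG, the core letters bound by ETS family factors, was found on either strand between 250 bases before and 50 bases after the start in 26 of the 66 (39.4%), against 9.93% of those 27025. These are matches of letters at annotated starts, not measured sites.

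TOP mRNAs outside the ribosomal proteins were examined beside them. Of 21 tested translation factor and other TOP genes, 0 were called, with a median log2 fold change of -0.031. Eef1a1, which brings aminoacyl-tRNA to the ribosome, was at 17418 and 17321 TPM at low and 18553 and 11941 TPM at high density.

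Chaperones and escorts of single ribosomal proteins summed to 1086 and 1092 TPM in the low density libraries and to 665 and 1032 TPM in high density libraries 1 and 2, so that high density library 1 stood apart. Of the 10 tested, 9 had a fitted value below 0 (4409 of all 10936 rows did). Both high density values lay below both low density values in 3 (30%), Rrs1, Bccip and Grwd1, where 20.0% of all rows did so. A single gene of the 10 (10%) was called lower, against 2.11% of all rows. It was Grwd1, a chaperone of Rpl3, at 93.4 and 104 TPM at low and 27.7 and 56.6 TPM at high density (log2 fold change -1.29 ± 0.32 SE, limma adjusted p = 0.0351). This call was lost without low density library 1 or 2 (limma adjusted p = 0.135 and 0.341), without a filter (0.570), after median centring (0.0529), quantile normalisation (0.0555) or rescaling without the ribosomal protein genes (0.0557), and without the trend (0.0737). Leaving out high density library 1 moved its fitted value to -0.79 on the log2 scale. Over the 10 the median was -0.41. Rpl3, whose protein it escorts, was at 761 to 788 TPM in all libraries.

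The 78 rows of mitochondrial ribosomal proteins, which build the separate ribosome of the mitochondrion, had 1 call, Mrpl12. This is 1.28% called lower, against 2.11% of all rows. Mrpl12 was at 353 and 492 TPM at low and 160.0 and 224 TPM at high density (log2 fold change -1.13 ± 0.26 SE, limma adjusted p = 0.0252). Of the 78, 59 had a fitted value below 0 and 31 (39.7%) had both high density values below both low density values, with a median of -0.24. Over all 10936 rows these were 4409, 2189 (20.0%) and 0.12. For the 83 cytosolic genes these were 55, 28 and -0.10. The difference between the families was not tested.

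Within the annotated bounds of 30 of the 87 genes, on the same strand, lie 58 small nucleolar RNAs, which guide the modification of ribosomal RNA. None of the 30 host genes was called, with a median log2 fold change of -0.072. The 53 tested genes that host none had the 4 calls (7.55%) and a median of -0.11. Of all rows, 2.11% were called lower, so few calls would fall in a set of 30 at that share. The difference between the 2 sets was not tested.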

How the data were processed

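RNA-seq was analysed from the 4 libraries. Per the labels, libraries were strand-specific and each column of the table belongs to 1 library. The authors deposited TPM values. The submitters' processing notes name build mm9 and DESeq2 1.2.10 without a role; the aligner, annotation, gene lengths, use of strand and treatment of reads that match several genes are not given in the sources used. As the build differs, no coordinates of table rows are given. Limma 3.58.1 in R 4.3.3 was fitted to log2(TPM + 1) with a density term and a mean-variance trend over rows whose mean reached 1 TPM (2 residual and 9.53 prior degrees of freedom), two-sided, with Benjamini-Hochberg adjustment over all rows, and was tested on simulated data. Windows of 50 bases came from 1 transcript per gene (GENCODE M21, protein-coding, principal) against all transcripts of other genes.

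Named by rule were the called genes, the 5 largest and 5 smallest fitted values, the 5 highest and 3 lowest levels, paralog pairs, and the stalk, 5S and ubiquitin fusion genes; others were chosen after their values were seen, and some genes are not reported here. The genes, lists and tests were chosen with earlier results of these data known. Alternatives were pseudocount, filter, scaling, variance moderation, replicate block, members and left-out libraries.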

Additional observations from a re-analysis of the deposited data

How the results depend on the processing

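The count of ribosomal protein genes called lower at high density (4) was 2 with a pseudocount of 5, 7 with a filter at a mean of 5 TPM (Rpl31, Rpl38 and Rps27a added), 1 after median centring, 1 after quantile normalisation, 2 after rescaling without the ribosomal protein genes, 2 without the variance trend, and 0 without a filter, where limma called 0 of all 25630 rows (2565 at an unadjusted p under 0.05). It ranged from 0 to 15 when single libraries were left out, and the count called higher (0) from 0 to 1. The latter was also 1 without the trend, in each case Rpl3l. All rows called (731) became 314 after median centring and 360 after quantile normalisation, and ranged from 233 to 3270 without single libraries. With 1 library in a group, that library is assumed to vary like the other group, on 1 residual degree of freedom. The cause of these changes was not tested. With the replicate number as a block, 5 genes were lower (Rpl27, Rpl31, Rpl34, Rps23, Rps27l) and 1 higher (Rpl3l). That fit called 3.08% of all rows lower and 5.49% higher, and the adjusted p of Rps29 in limma was 0.0536. The numbers are not known to pair the libraries: deviations of same-numbered libraries correlated at 0.042. The median log2 fold change of the genes ran from -0.28 after median centring to -0.0058 without low density library 2. Its gap to all rows (-0.10 against 0.12) was not kept without high density library 2 (-0.019 against -0.023) and was small after quantile normalisation (-0.033 against -0.012), while the difference in summed share ran from -2.07 to 0.89 percentage points without single libraries. Among 36 named genes in 502 combinations of gene and setting, 32 calls were lost and 18 gained, and the fitted sign changed in 35, 0 of them called. Depth is unknown, so low values such as those of Rpl3l and Rpl30 have no counting error.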
